A study of Mus musculus with 13 samples.

Results

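The 10 genes described here encode the enzymes that make and break down polyamines, together with the antizymes and the antizyme inhibitor that control the first of these enzymes: Odc1, Amd1, Srm, Sms, Oaz1, Oaz2, Azin1, Sat1, Smox and Paox. They were found by matching Ensembl gene identifiers to mouse symbols, and all 10 of 10 were among the 42416 identifiers counted and among the 13360 genes that passed the filter on low counts. Odc1 was selected on its measured CPM, which were lower in the iFAXLKO group, so its difference between the groups is given as a description and carries no test. The other 9 members were chosen by their place in the pathway.

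Bulk RNA sequencing was performed on interscapular brown adipose tissue (iBAT), with 13 libraries that the labels number as replicates of 2 groups. All mice carried loxP sites around part of Axl, the gene of a receptor tyrosine kinase, were fed a high-fat diet (HFD) ad libitum at room temperature, with tamoxifen given at intervals of 3 weeks. The iFAXLKO mice (8 libraries) were Cre positive and the WT controls (5 libraries) Cre negative, so that tamoxifen was given in both groups while the Cre transgene was present in only 1 of them. Per the methods of the study the transgene is Adipoq-CreERT2, cloned on a bacterial artificial chromosome. Its figure legends and reporting summary give the mice of the adipocyte-specific knockout as female. Adipoq is a gene of adipocytes, so the other cells of the depot are not the intended target. No age is given in the labels. The comparison asks how the transcriptome of brown fat on HFD differs after induced Cre activity against Axl in adipocytes.

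Total counts were between 22.44 and 32.6 M per library (M as in Mb), and levels are given as CPM, counts per M counts of the library after TMM scaling. Axl itself showed no decrease in libraries labelled iFAXLKO, at 33.1 ± 6.16 CPM (SD, n = 8), where the WT level was 27.8 ± 3.83 CPM (SD, n = 5, edgeR adjusted p 0.699), so each direction given here rests on the labels. Genes of the Adipoq neighbourhood, around which the transgene was built, did differ along the labels, with B630019A10Rik at 35.1 ± 3.68 CPM (SD, n = 8) in iFAXLKO where WT had 0.0985 ± 0.0353 CPM (SD, n = 5), and Adipoq at 1120 ± 132 and 708 ± 92.7 CPM (edgeR adjusted p 2.41e-14 and 0.0118). Brown adipocyte markers such as Ucp1 and Cidea summed to between 8971 and 13530 CPM in iFAXLKO and between 11120 and 16280 CPM in WT libraries, with none of the 11 markers at 0. Skeletal muscle markers summed to between 90.6 and 5954 CPM over the 13 libraries, and fibroblast markers to between 562 and 1223 CPM in iFAXLKO against 405 to 724 CPM in WT. Among all 13360 genes, 17 (0.127%) passed an adjusted p of 0.05 in edgeR's quasi-likelihood test, 13 higher and 4 lower (0.0299%). The 13 higher genes include B630019A10Rik and Adipoq, and how many of the others lie near Adipoq was not determined. In bulk tissue, fewer cells of a type and less RNA per cell cannot be told apart.

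Polyamines are small positively charged molecules that bind RNA and DNA and are needed for growth and translation. Ornithine decarboxylase, encoded by Odc1, turns ornithine into putrescine, the first polyamine, and S-adenosylmethionine decarboxylase, encoded by Amd1, supplies the aminopropyl groups with which spermidine synthase (Srm) makes spermidine and spermine synthase (Sms) makes spermine. Antizymes (Oaz1, Oaz2) bind ornithine decarboxylase and send it to the proteasome, while the antizyme inhibitor (Azin1) takes up antizyme and so spares the enzyme. Sat1 acetylates spermine and spermidine, after which Paox oxidises the acetylated forms back towards putrescine, and Smox oxidises spermine directly. In adipose tissue, acetylation by Sat1 consumes acetyl-CoA and is known as a cycle that spends energy.

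Control by polyamines is written into several of these transcripts, and 3 such stretches are shown because transcript counts do not measure this control. In both antizymes the ribosome has to skip 1 base at the stop codon of the first reading frame, a step that polyamines favour, and the annotated coding sequences skip that base. The windows are taken from GENCODE M21 transcripts (GRCm38), 5′ to 3′, Oaz1 at chr10:80828262-80828328 and Oaz2 at chr9:65686239-65686305, both on the plus strand, with the last codon of the first frame and its stop codon in capitals.
Oaz1: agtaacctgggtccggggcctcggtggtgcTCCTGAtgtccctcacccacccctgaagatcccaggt
Oaz2: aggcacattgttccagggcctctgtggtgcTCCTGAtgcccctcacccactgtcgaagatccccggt
The windows are identical at 54 of 67 bases (80.6%), the capitals included. The leader of Amd1 holds a short upstream reading frame of 21 bases, at chr10:40302155-40302175 on the minus strand, whose translation is known to hold back the main frame when polyamines are abundant. Its start and stop codons are in capitals.
Amd1 upstream frame: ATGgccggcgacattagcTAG

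Odc1 (ENSMUSG00000011179, chr12:17544794-17551505, GRCm38, plus strand) was the member with the largest difference between the groups. In WT replicates 1 to 5 its level was 40.9, 47.6, 46.0, 44.7 and 42.5 CPM. In the 8 iFAXLKO libraries it ran from 27.6 through a median of 28.9 to 35.6 CPM. Every iFAXLKO library lay below every WT library, and within iFAXLKO replicates 2, 3 and 5 were the higher ones, at 32.7, 35.6 and 35.2 CPM, with the other 5 between 27.6 and 29.3 CPM.

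The mean of Odc1 was 30.6 ± 3.38 CPM (SD, n = 8) against 44.3 ± 2.69 CPM (SD, n = 5), or 69.0% of the WT mean. On the log2 scale the fold change was -0.54. Ranges that did not overlap, with iFAXLKO the lower, were found for 26 of 13360 genes (0.195%), and in either direction for 58 (0.434%). Since Odc1 was chosen for this contrast, no test or interval is attached to it and nothing is read from these shares. The value lay between -0.57 and -0.51 when any 1 library was left out and between -0.55 and -0.47 over 10 other fits. It was -0.49 in the lower 6 and -0.58 in the upper 7 of the library numbers in the labels, each of which holds libraries of both groups. With the choice made on all 13 libraries, these values describe Odc1 and are not read as support for its difference. Marker lists of other cells also leaned one way, with 0 genes of any list past the adjusted limit. Log2 fold changes were positive for 9 of 9 fibroblast markers (median 0.66), 10 of 10 macrophage markers (median 0.40), 5 of 5 erythroid markers tested (median 0.34) and 6 of 7 endothelial markers (median 0.15). They were negative, as for Odc1, for 10 of 11 brown adipocyte markers (median -0.13) and 14 of 15 skeletal muscle markers (median -0.25). With the fibroblast score as a covariate the Odc1 value was -0.55, and with the skeletal muscle score it was -0.52. No fit used the brown adipocyte score. The part of any cell type in the Odc1 value was not tested.

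**Figure D1:**
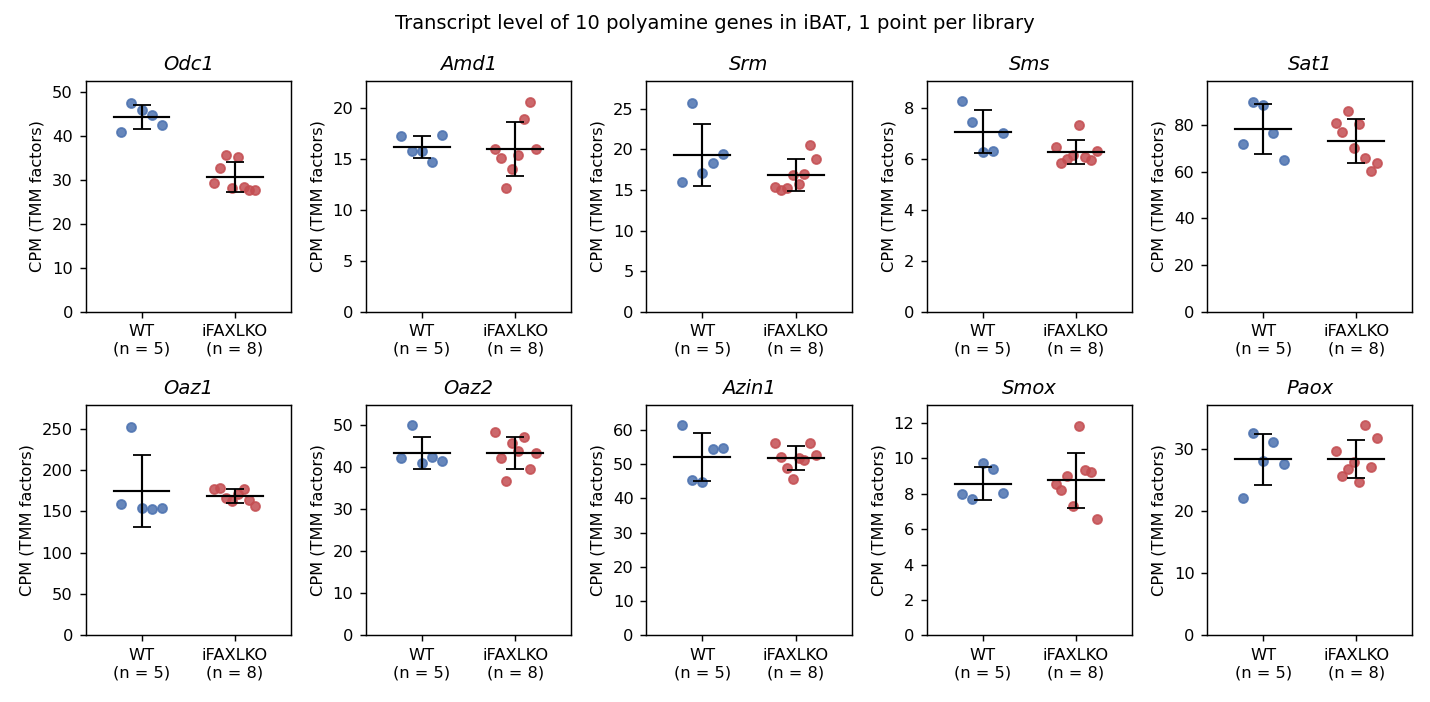
Level of the 10 polyamine genes in each iBAT library, in CPM with TMM factors on axes from 0, with WT (n = 5) in blue and iFAXLKO (n = 8) in red, where horizontal lines are group means and bars are SD. Odc1, which was chosen for its lower level in iFAXLKO, is the only one of the 10 whose groups do not overlap. The highest WT point of Oaz1, 252 CPM, is replicate 2.

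The other members were read from the same fit, and none of them passed. Of these 9 genes 0 had an adjusted p under 0.05, against 0.127% of all genes tested, and 0 had an unadjusted p under 0.05, against 7.38% of all genes. Their log2 fold changes lay between -0.20 and 0.03 with a median of -0.02, 2 positive and 7 negative, where the median over all genes tested was -0.01. In DESeq2 and in limma-voom 0 of the 9 passed as well. The adjusted p-values named below are those of edgeR with Benjamini-Hochberg adjustment over all 13360 genes.

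The remaining enzymes of synthesis follow Odc1 in the pathway. Amd1 (ENSMUSG00000075232, chr10:40287458-40302186, minus strand) stood at 17.3, 15.8, 15.8, 14.7 and 17.4 CPM in WT replicates 1 to 5. In iFAXLKO it ran from 12.2 through 15.7 to 20.6 CPM, with 2 libraries below and 2 above the WT range. The groups overlapped throughout, with a log2 fold change of -0.02 (95% interval -0.25 to 0.21, adjusted p 0.988). The spread between libraries was wider in iFAXLKO, with a coefficient of variation of 16.6% against 6.88% in WT, a difference that was not tested.

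Srm (ENSMUSG00000006442, chr4:148591503-148594993, plus strand) stood at 15.9, 25.8, 17.2, 18.3 and 19.4 CPM in WT replicates 1 to 5 and ran from 14.98 through 16.3 to 20.5 CPM in iFAXLKO. The high WT value was replicate 2, and only 1 of 8 iFAXLKO libraries lay above the WT mean. Its log2 fold change was -0.20 (95% interval -0.44 to 0.04, adjusted p 0.734), which became -0.07 when WT replicate 2 was left out. Sms (ENSMUSG00000071708, chrX:157443855-157492287, minus strand), the member of lowest level per length, stood at 8.28, 7.48, 6.27, 6.34 and 7.04 CPM in WT replicates 1 to 5. In iFAXLKO Sms ran from 5.86 through 6.12 to 7.33 CPM, and 5 of the 8 libraries lay below the WT range. Its log2 fold change of -0.17 (95% interval -0.37 to 0.02, adjusted p 0.717) was -0.36 within the lower 6 library numbers and -0.03 within the upper 7.

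Among the genes that act on ornithine decarboxylase protein, Oaz1 (ENSMUSG00000035242, chr10:80826656-80829290, plus strand) had the highest level per length of the 10 members. It stood at 159, 252, 155, 153 and 155 CPM in WT replicates 1 to 5 and ran from 156 through 169 to 178 CPM in iFAXLKO. Replicate 2 stood alone in WT, where the rest lay between 153 and 159 CPM. In iFAXLKO, replicate 8 at 156 CPM lay within that span, and all other libraries lay above it, from 162 to 178 CPM. The log2 fold change was -0.05 (95% interval -0.29 to 0.19, adjusted p 0.970). Leaving out WT replicate 2 turned it to 0.12 (SE 0.05), with an edgeR adjusted p of 0.396, so the value for Oaz1 depends on that library. That library also had the lowest TMM factor of the 13, 0.897, and whether this bears on its Oaz1 level was not tested.

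Oaz2 (ENSMUSG00000040652, chr9:65668001-65690300, plus strand), the second antizyme, stood at 42.2, 50.2, 41.1, 42.5 and 41.4 CPM in WT replicates 1 to 5, again with replicate 2 highest. In iFAXLKO it ran from 36.9 through 43.6 to 48.5 CPM. The means were 43.4 ± 3.88 CPM (SD, n = 8) and 43.5 ± 3.78 CPM (SD, n = 5), with a 95% interval of the log2 fold change from -0.17 to 0.16 (adjusted p 0.997). Azin1 (ENSMUSG00000037458, chr15:38487427-38519266, minus strand), the antizyme inhibitor, stood at 61.5, 45.4, 44.9, 54.4 and 54.7 CPM in WT replicates 1 to 5. In iFAXLKO Azin1 ran from 45.6 through 51.9 to 56.2 CPM, inside the WT range in all 8 libraries, with a log2 fold change of -0.01 (95% interval -0.19 to 0.17, adjusted p 0.990). For Oaz2 and Azin1 the difference between the group means was smaller than the SD of either group, whereas for Oaz1 this held only with WT replicate 2 included.

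Among the genes of breakdown, Sat1 (ENSMUSG00000025283, chrX:155213132-155216449, minus strand), which encodes the acetyltransferase, stood at 71.95, 90.0, 88.6, 76.6 and 65.1 CPM in WT replicates 1 to 5. In iFAXLKO it ran from 60.2 through 73.7 to 85.9 CPM. Both groups spread widely and overlapped, with a log2 fold change of -0.10 (95% interval -0.32 to 0.12, adjusted p 0.885). Smox (ENSMUSG00000027333, chr2:131491496-131525922, plus strand), which encodes spermine oxidase, stood at 8.02, 7.69, 9.74, 9.40 and 8.05 CPM in WT replicates 1 to 5 and ran from 6.57 through 8.79 to 11.8 CPM in iFAXLKO. Its log2 fold change was 0.03 (95% interval -0.24 to 0.29, adjusted p 0.984), the widest interval of the 9 members.

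Paox (ENSMUSG00000025464, chr7:140115799-140137224, plus strand), which encodes the oxidase of acetylated polyamines, stood at 22.2, 32.7, 28.2, 31.2 and 27.7 CPM in WT replicates 1 to 5. In iFAXLKO it ran from 24.8 through 27.6 to 33.9 CPM, with a log2 fold change of 0.01 (95% interval -0.20 to 0.22, adjusted p 0.996). Its exons overlap those of Echs1 on the opposite strand over 142 bases, 2.89% of its length. Echs1 had 33.2 counts for each count of Paox and the strand setting of the counting is not given in the sources used here, so part of the Paox count may belong to Echs1.

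**Figure D2:**
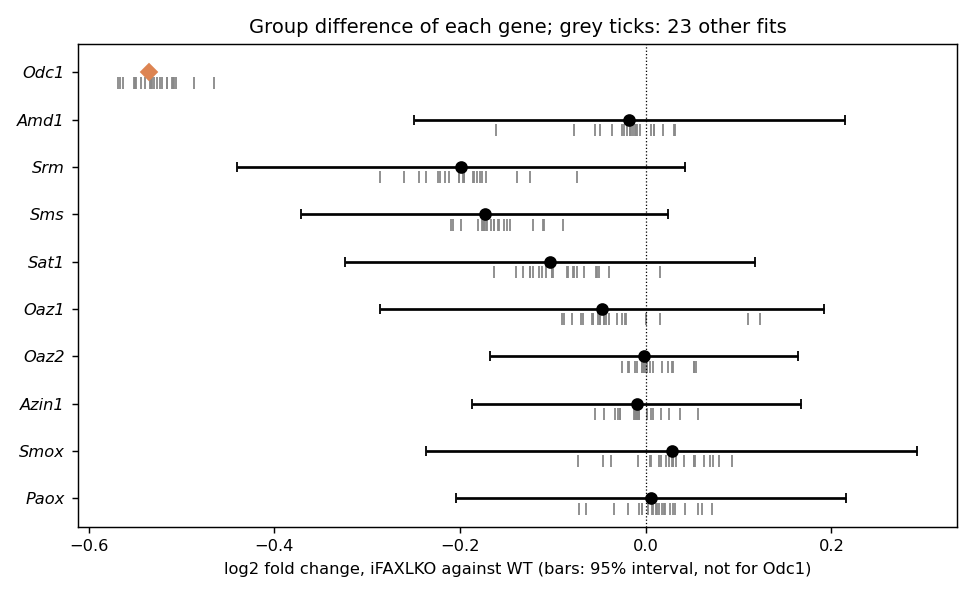
Log2 fold change of each polyamine gene, iFAXLKO against WT, with its 95% interval from edgeR for all but Odc1, where grey ticks are 23 other fits (10 other settings and 13 fits without 1 library). Odc1 lies at -0.54 and is drawn as a diamond with no interval because it was chosen for this contrast, and the other 9 genes lie between -0.20 and 0.03.

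To compare levels between genes, CPM were divided by the exon length of the gene in kb. This length merges the exons of all annotated transcripts, so it can exceed that of the transcripts expressed. In WT the order was Oaz1 at 68.3 ± 17.0 CPM per kb (SD, n = 5), Sat1 at 28.3 ± 3.86, Oaz2 at 14.5 ± 1.26, Odc1 at 13.02 ± 0.789, Srm at 12.1 ± 2.40, Azin1 at 8.34 ± 1.12, Paox at 5.79 ± 0.829, Amd1 at 4.58 ± 0.315, Smox at 2.203 ± 0.236 and Sms at 1.18 ± 0.140 CPM per kb. Neighbours whose WT ranges overlapped were Oaz2 with Odc1, Odc1 with Srm, and Paox with Amd1. In iFAXLKO Odc1 stood at 8.99 ± 0.994 CPM per kb (SD, n = 8), apart from Oaz2 at 14.5 ± 1.30 and with a mean below that of Srm at 10.5 ± 1.23, whose range it still overlapped. The 3 highest means per length in both groups were those of the antizymes and the acetyltransferase, with Oaz2 overlapping Odc1 in WT. Since Odc1 was chosen for its lower level in iFAXLKO, its lower place in that group restates the choice.

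**Figure D3:**
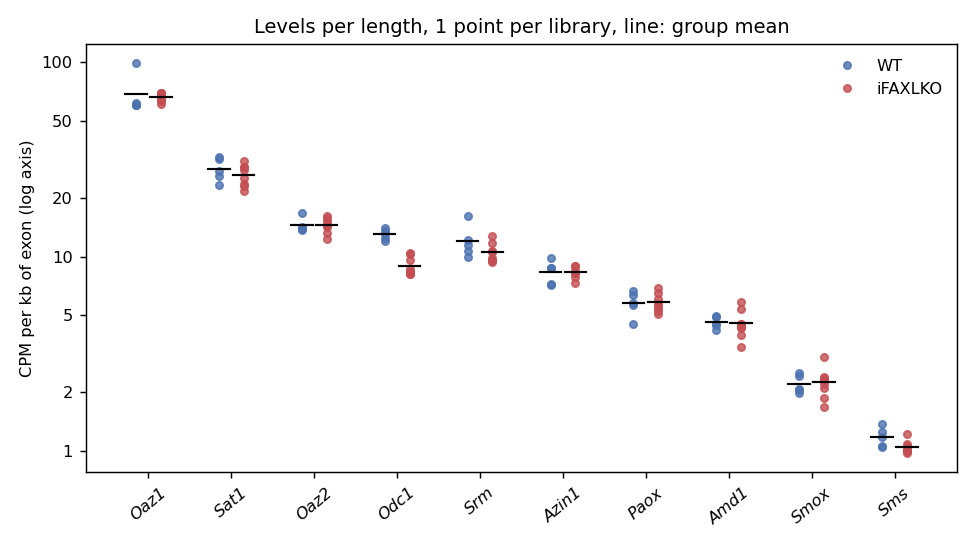
Level of each polyamine gene per kb of exon (CPM per kb, log axis), 1 point per library, WT in blue and iFAXLKO in red, with lines at group means. Oaz1 and Sat1 lead in both groups, and the ranges of Odc1 and Oaz2 overlap in WT but not in iFAXLKO. The latter restates the choice of Odc1, which was made on its lower level in iFAXLKO.

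The choice of Odc1 rested on its difference between the groups, which a small spread within groups makes easier to see. How Odc1 varied along with the other 9 members within groups was not part of that choice and was compared here. Log2 CPM had the group mean subtracted, and Pearson's r and Spearman's rho over the 13 libraries were tested by permutation, 2-sided, with 100000 orders drawn within groups. Sat1 was the member that varied most closely with Odc1, so that libraries with more Odc1 transcript also had more Sat1 transcript. Pearson's r was 0.81 (permutation p 0.00129, 0.0116 adjusted over 9 relations) and Spearman's rho 0.82 (permutation p 0.00119, adjusted 0.0107). Without the 2 libraries farthest from the median, iFAXLKO replicates 3 and 5, r was 0.78.

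The relation between Odc1 and Sat1 held in both ranges of library numbers, with r of 0.82 in the lower 6 and 0.86 in the upper 7. It lay between 0.77 and 0.88 when 1 library was left out. With the score of skeletal muscle, fibroblast, macrophage, brown adipocyte, endothelial or erythroid markers removed from both genes, a step added after the relation was seen, r lay between 0.78 and 0.83. Each score was removed on its own, and the part of cell types in this relation was not tested. Of 13358 other genes tested, 23 (0.172%) had an r with Odc1 at least as high as that of Sat1.

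Amd1 had a negative r with Odc1 of -0.63 (permutation p 0.0526, adjusted 0.232) and a rho of -0.65 (permutation p 0.0365, adjusted 0.164), which did not pass the limit after adjustment. Without iFAXLKO replicates 3 and 5 the r of Amd1 was -0.44, while it was -0.66 and -0.61 in the lower and upper library numbers. The remaining 7 members had r between -0.41 (Azin1) and 0.52 (Smox) with adjusted permutation p-values from 0.232 to 0.930, and the sign for Srm, Sms, Oaz2 and Paox differed between the ranges of library numbers. No member passed when set against the skeletal muscle score over 10 relations, the lowest adjusted permutation p being 0.0733, for the rho of 0.61 of Oaz1, whose r was 0.39 (adjusted 0.554).

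**Figure D4:**
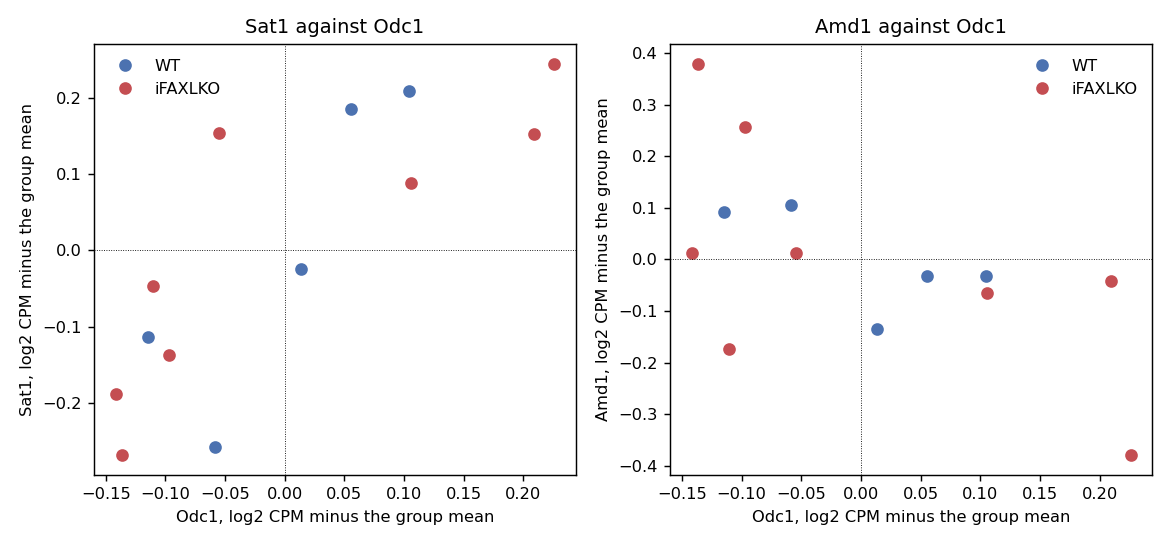
Sat1 (left) and Amd1 (right) against Odc1 in 13 iBAT libraries, each axis in log2 CPM minus the mean of the library's own group, WT in blue and iFAXLKO in red. Sat1 rises with Odc1 (r = 0.81) in both colours, whereas the r of Amd1 (-0.63) did not pass after adjustment.

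The genes most like Odc1 over the same 13 libraries were sought among 8591 tested genes with a mean of at least 10 CPM, with group means subtracted, and are given as a description. The highest r were those of Ubxn8 (0.87), Fas (0.87), Nectin2 (0.87), Atp6v0d1 (0.86) and St6galnac2 (0.86). The lowest were those of Abcc1 (-0.91), Ksr1 (-0.90), Fam222a (-0.90), Stat5a (-0.89) and Smug1 (-0.88). All share libraries and scaling with Odc1.

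The wider pathway was followed through 6 lists of 56 genes, of which 41 passed the filter on low counts. Of these 41 genes 0 passed the adjusted limit, and 1 higher and 1 lower had an unadjusted p under 0.05, against 7.38% of all genes tested in either direction. Their log2 fold changes were positive for 18 and negative for 23 genes, with a median of -0.01, the same as over all genes.

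The gene with the lower unadjusted p was Gpc1 (chr1:92831645-92860779), which encodes glypican 1, a heparan sulphate proteoglycan linked to polyamine uptake. Its level was 22.1 ± 6.09 CPM (SD, n = 8) in iFAXLKO and 35.1 ± 8.79 CPM (SD, n = 5) in WT, with 0 of 8 iFAXLKO libraries above the mean of WT. The log2 fold change of Gpc1 was -0.67 (SE 0.20), with an edgeR p of 0.00446 that was 0.451 after adjustment. Oat (chr7:132557478-132576398) encodes ornithine aminotransferase, which links ornithine with glutamate. Its level was 62.1 ± 3.78 CPM (SD, n = 8) in iFAXLKO and 55.8 ± 3.14 CPM (SD, n = 5) in WT, with 8 of 8 iFAXLKO libraries above the mean of WT. The log2 fold change of Oat was 0.15 (SE 0.06), with an edgeR p of 0.0280 that was 0.619 after adjustment. The other 39 genes tested had an unadjusted p above the limit.

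The supply of ornithine and arginine rested on 7 tested genes of 11, with 0 past the adjusted limit and a median log2 fold change of 0.15. Arginases, which make ornithine from arginine, were near the floor of detection, with Arg1 at 0.161 CPM in iFAXLKO and 0.0364 CPM in WT and Arg2 at 0.0919 and 0.0324 CPM, so no difference was tested. Beside Oat, the highest level per length in this list was that of Slc25a15, the mitochondrial ornithine carrier, with a log2 fold change of -0.10 (SE of 0.07, with adjusted p 0.798). In the methionine cycle and the salvage of methylthioadenosine, the by-product of Srm and Sms, 10 of 11 genes were tested and 0 passed. Apip, a salvage enzyme, had a log2 fold change of -0.16 (SE of 0.09, with adjusted p 0.748), and Mat2a, which makes S-adenosylmethionine, of 0.01 (SE 0.11, adjusted p 0.993), while the liver form Mat1a had 0 counts in all libraries.

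Hypusination, in which spermidine is used to modify the translation factor eIF5A, was represented by 4 tested genes of 4 with 0 past the limit. Eif5a had a log2 fold change of -0.08 (SE 0.11) and Dohh, which completes the modification, of -0.01 (SE 0.12), with adjusted p-values of 0.926 and 0.992. Among polyamine transport genes 9 of 12 were tested and 0 passed, with Cav1 at 0.15 (SE 0.10) and Slc3a2 at 0.04 (SE 0.20) beside Gpc1. Of the MYC network, which includes the transcription factor MYC, 9 of 11 genes were tested and 0 passed. Myc itself was at 6.77 ± 2.16 CPM (SD, n = 8) in iFAXLKO and 5.82 ± 1.18 CPM (SD, n = 5) in WT, with a log2 fold change of 0.22 (95% interval -0.27 to 0.70, adjusted p 0.897). The members of this list with the highest level per length, Mxd4 and Mlx, had log2 fold changes of -0.02 (SE 0.07, adjusted p 0.982) and -0.17 (SE 0.09, adjusted p 0.717).

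Further polyamine enzymes and regulators were scarce in this tissue, with 2 of 7 passing the filter on low counts. These were Sat2, a second acetyltransferase gene, with a log2 fold change of 0.02 (SE of 0.16, with adjusted p 0.989), and Azin2, a second antizyme inhibitor, with -0.07 (SE 0.16, adjusted p 0.970). Satl1 and Agmat had 0 counts in all libraries. Amd2 had at most 10 counts in a library, and since 85.7% of its 50-base words also occur in Amd1 its counts are uncertain. Reads of the shared sequence may also be missing from the Amd1 counts, since the counting tool is not given in the sources used here.

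The stretch just before the GENCODE start of Odc1 is shown because Odc1 is the member on which the comparison turns. It is the 171 bases of chr12:17544623-17544793 on the plus strand, from the RefSeq promoter table (GRCm38.p6), with GGGCGG and its other-strand form CCGCCC in capitals, of which there are 3.
Odc1 upstream: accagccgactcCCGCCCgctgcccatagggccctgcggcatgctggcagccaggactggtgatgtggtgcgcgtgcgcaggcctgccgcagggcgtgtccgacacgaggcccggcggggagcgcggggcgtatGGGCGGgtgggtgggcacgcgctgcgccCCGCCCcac
Windows of 300 bases around a start in the same table were at hand for 8 of the 10 members, in 10 windows. They were searched on both strands for 4 motifs, none of which contains another. Srm and Azin1 had no window, and stretches outside the windows were not searched. GGGCGG, the GC box, was found in 8 of 10 member windows, those of Amd1, Oaz2, Odc1, Paox, Sat1, Smox and Sms, and in 35.7% of all 32851 windows. The E-box CACGTG, the motif of MYC, was found in the window of Sms alone and in 7.15% of all windows. TGACG, a half-site of the cAMP response element, was found for Amd1, Oaz1 and Odc1 and in 20.8% of all windows, and TATAAA for Oaz1 and in 13.6%. These are matches of letters and were not tested as sites of binding.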

How the data were processed

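RNA of iBAT was sequenced in 13 libraries, 8 iFAXLKO and 5 WT by the labels, and the authors deposited raw counts, 1 whole number per Ensembl gene identifier. The processing notes of the submitters name bcl2fastq 2.20, fastp 0.20.0, STAR 2.7.4a, DESeq2 and the build GRCm38.p6, with polyadenylated RNA in the labels, whereas the methods of the study describe rRNA depletion, Trim Galore and hisat2 with GRCm38. The counting tool and strand setting are not given in the sources used here. Per-sample columns left unused numbered 0.

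Genes above 1 CPM in 5 or more libraries (13360) were retained, scaled by TMM and tested with edgeR 4.0.16 (R 4.3.3, quasi-likelihood F test, robust dispersions, 2-sided), with Benjamini-Hochberg adjustment over all of them and a limit of 0.05. The SE is the size of a log2 fold change divided by the square root of F. Log2 CPM used a prior count of 2. Lengths, positions and the antizyme and Amd1 sequences came from GENCODE M21 (GRCm38), and symbols from a table of gene names. The lowest count of a member in a library was 139. Over 38 pairs of libraries within groups the chi-square statistic per degree of freedom was at least 15.26, so each library was counted as 1 replicate. The labels do not tie replicates to named animals, so p-values measure the spread between these libraries.

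Genes named are the 10 members, Axl, every gene of the pathway lists with an unadjusted p under 0.05, the 2 genes of each list with the highest CPM per kb, and the 5 genes with the highest and the 5 with the lowest r with Odc1. Others, such as B630019A10Rik, Adipoq, Myc, Mat1a, the arginases, Satl1, Agmat and Amd2, were named after their values were seen. The members, lists and tests were chosen with earlier results of these data known. Alternatives were DESeq2 1.42.0, limma-voom (limma 3.58.1) with quality weights, factors by RLE or by the upper quartile, library sizes that leave out mitochondrial and the 10 most abundant genes, no filter beyond 1 count, replicate number as a block, library number, skeletal muscle or fibroblast score as a covariate, and each library left out. The scripts were tested on simulated data.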

Additional observations from a re-analysis of the deposited data

Results flagged for a closer look

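In 3 of the 20 groups of values checked, 10 members in 2 groups each, 1 library stood apart from the rest by Dixon's criterion at 95%, where chance marks about 1 group in 20. Oaz1 was at 252 CPM in WT replicate 2, with the other 4 WT libraries between 153 and 159 CPM. In the same library Oaz2 was at 50.2 CPM, with the other 4 WT libraries between 41.1 and 42.5 CPM. Sms was at 7.33 CPM in iFAXLKO replicate 5, with the other 7 iFAXLKO libraries between 5.86 and 6.49 CPM. Without WT replicate 2 the log2 fold changes were 0.12 for Oaz1 and 0.05 for Oaz2.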

How the results depend on the processing

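Odc1 lay between -0.57 and -0.51 in the fits that left out a library. Over the other settings it lay between -0.55 and -0.47, the highest being the replicate block. Since Odc1 was chosen for this contrast and its ranges did not overlap, a negative value was to be expected in each fit. Its direction is not read as support. The count of the other 9 members past the adjusted limit was 0 in every fit, as was that of the pathway genes, with adjusted p-values of the members from 0.396 to 1.0. The count over all genes, 17, became 67 in DESeq2 (38 higher, 29 lower), 7 with the replicate block (all higher) and 8 with the fibroblast score (all higher), and lay between 14 and 19 without 1 library. Of the members near 0, the sign turned for Oaz2 with RLE factors (5e-04), upper quartile factors (0.024), reduced library sizes, that is without the most abundant genes (0.052), DESeq2 (0.0015), limma-voom (0.052), the muscle score (0.008), the fibroblast score (0.029) and the upper library numbers (0.058). It turned for Amd1 with upper quartile factors (0.0094), reduced library sizes (0.032) and the upper numbers (0.14), and for Azin1 with the same 3 (0.017, 0.036 and 0.0502). For Oaz1 it turned with reduced library sizes (0.0155), limma-voom (0.11) and the upper numbers (0.11), and with the replicate block the value was 0.00. It turned for Smox with limma-voom (-0.073) and the fibroblast score (-0.037), for Paox with the replicate block (-0.064) and the muscle score (-0.0073), and for Sat1 with the replicate block (0.0157). Without 1 library the ranges were -0.077 to 0.031 for Amd1, -0.055 to 0.0565 for Azin1, -0.0899 to 0.12 for Oaz1, -0.0254 to 0.0547 for Oaz2, -0.072 to 0.0606 for Paox, -0.0456 to 0.093 for Smox, -0.16 to -0.039 for Sat1, -0.21 to -0.11 for Sms and -0.26 to -0.074 for Srm. The cause of these turns was not tested. The reduced library sizes moved the median of all genes from -0.01 to 0.04. Replicate numbers were not taken as pairs, since deviations of same-numbered libraries correlated at 0.39, 0.42, 0.19, 0.18 and -0.61 over numbers 1 to 5 and only 2 of 5 WT libraries correlated best with their own number. A prior count of 0.5 left the relation of Odc1 with Sat1 past its limit. Each member had 139 or more counts in each library.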

Other observations

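Some pathway genes outside the naming rule, chosen here after their values were seen, are given with their values, and none of them passed the adjusted limit. Mycl, a MYC family gene, ran from 3.07 through a median of 8.48 to 40.7 CPM in the 8 iFAXLKO libraries and from 3.70 through 4.17 to 7.49 CPM in the 5 WT libraries, a log2 fold change of 1.22 (SE of 0.62, edgeR adjusted p 0.707). Slc7a2, a transporter of cationic amino acids, ran from 1.99 to 9.47 CPM in iFAXLKO and from 1.94 to 4.16 CPM in WT, a log2 fold change of 0.61 (SE of 0.35, edgeR adjusted p 0.742). Eif5a2, the second eIF5A gene, lay above the WT range in 6 of 8 iFAXLKO libraries and below it in 1, as did Myc. The share of all genes with such counts was not determined. Eif5a2 was at 3.53 ± 0.872 CPM (SD, n = 8) in iFAXLKO and 2.78 ± 0.426 CPM (SD, n = 5) in WT, with an edgeR adjusted p of 0.717. Atp13a2, which encodes a lysosomal polyamine exporter, also lay above the WT range in 6 of 8 libraries, at 26.5 ± 1.55 CPM (SD, n = 8) in iFAXLKO and 24.7 ± 1.14 CPM (SD, n = 5) in WT, with an edgeR adjusted p of 0.752.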
